A study of Mus musculus with 9 samples.

Results

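The genes described here carry the unfolded protein response and the integrated stress response, by which a cell answers a load of misfolded protein in the endoplasmic reticulum (ER) or a block in protein synthesis. They are 10 of the 18193 genes named on the array: Ern1, Xbp1, Atf6, Hspa5, Hsp90b1, Atf4, Ddit3, Atf3, Trib3 and Ppp1r15a. Members were the probe sets whose annotation gave exactly 1 of these symbols, 26 of the 45037 probe sets on the array, and 21 of the 26 passed the filter on low signal, with at least 1 for each gene. The tissue was the cochlea of male C57BL/6 mice, and each of the 9 one-colour arrays carried RNA pooled from 4 cochleae of 2 mice. The groups, of 3 arrays each, were 15-month-old mice on calorie restriction (CR), 15-month-old controls (MC) and 4-month-old controls (YC). CR mice ate 62 kcal per week from 2 months of age, and MC and YC mice ate 84 kcal per week. The labels name no genetic change. Since each pool is of whole tissue, fewer cells of a type and less RNA per cell cannot be told apart. The labels do not say whether the pools of a group came from separate litters or cages, so p-values measure the spread between these pools.

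The ER membrane carries 3 kinds of sensor. The kinase and ribonuclease IRE1α, encoded by Ern1, splices the mRNA of the transcription factor XBP1. ATF6 is cut in the Golgi to release a transcription factor, and both routes raise ER chaperones such as BiP, encoded by Hspa5, and GRP94, encoded by Hsp90b1. Another sensor, the kinase PERK, phosphorylates the translation initiation factor eIF2α, as do kinases that sense amino acid lack, viral RNA or heme lack. This phosphorylation favours translation of ATF4, which with CHOP, encoded by Ddit3, turns on Atf3, Trib3 and Ppp1r15a. The last of these encodes GADD34, a phosphatase subunit that ends the signal. Splicing of Xbp1, cleavage of ATF6 and translation of Atf4 are steps that the total mRNA level on an array does not measure.

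Some features of the arrays touch every result. Array median signals lay between 526.8 and 626.6 on 4 arrays, the 3 CR arrays and YC 1, and between 842.4 and 1103.9 on the other 5, the 3 MC arrays, YC 2 and YC 3. CR and MC therefore share no such class, and the class and the diet cannot be told apart from these groups alone. All 13 skeletal muscle markers were lower in CR than in MC, 10 of them past the threshold (limma), with mean list scores from -1.52 to -0.999 in CR and from 0.51 to 1.10 in MC, in log2 units around each gene's mean. Of the 11 tested brain markers 10 were higher in CR, 0 past the threshold, with scores from 0.56 to 1.55 in CR and from -1.16 to -0.49 in MC. Of 16 tested cochlear markers 13 were higher in CR, 0 past the threshold, with scores from 0.29 to 0.77 in CR and from -0.48 to -0.15 in MC. The cochlear markers Otos and Coch passed the filter, while Tecta, Kcne1, Slc26a5 and Pou4f3 lay below the filter. Macrophage, B and plasma cell and bone markers had 4 of 9, 3 of 7 and 5 of 8 tested genes higher in CR, with 0 past the threshold. Array scaling also matters: with arrays centred on their median, the median over all tested probe sets was 0.58 for CR minus MC, -0.15 for MC minus YC and 0.39 for CR minus YC, beside 0.08, 0.02 and 0.08 after quantile normalization. The part of array class and of tissue content in the values below was not tested, beyond the values given beside them from a fit that adds array class, low or high median, as a term. Only YC holds arrays of both classes, so that fit takes the class difference from YC 1 against YC 2 and YC 3. All its CR minus MC values, for genes and for lists, therefore lean on the single array YC 1.

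No member passed the threshold of adjusted p under 0.05 in any comparison. Values are log2(signal + 16) after quantile normalization, differences are log2 changes from 1 limma fit over all 9 arrays, and p was adjusted by the Benjamini-Hochberg method over 27022 probe sets. For CR minus MC 0 of 21 member probe sets passed, where 25 probe sets, 0.0925% of those tested, did. At an unadjusted p under 0.05 there were 4 members, 1 higher and 3 lower in CR, against 18.5% of all probe sets. For MC minus YC 0 of 21 passed against 0% of all, and 1 had an unadjusted p under 0.05, against 3.39%. For CR minus YC 0 of 21 passed against 0%, and 3 had an unadjusted p under 0.05, against 10.8%. The F test over the 3 groups called 0% of probe sets and 0 members, and 4 of the 21 member probe sets had an unadjusted p under 0.05, against 11.9% of all.

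**Figure D1:**
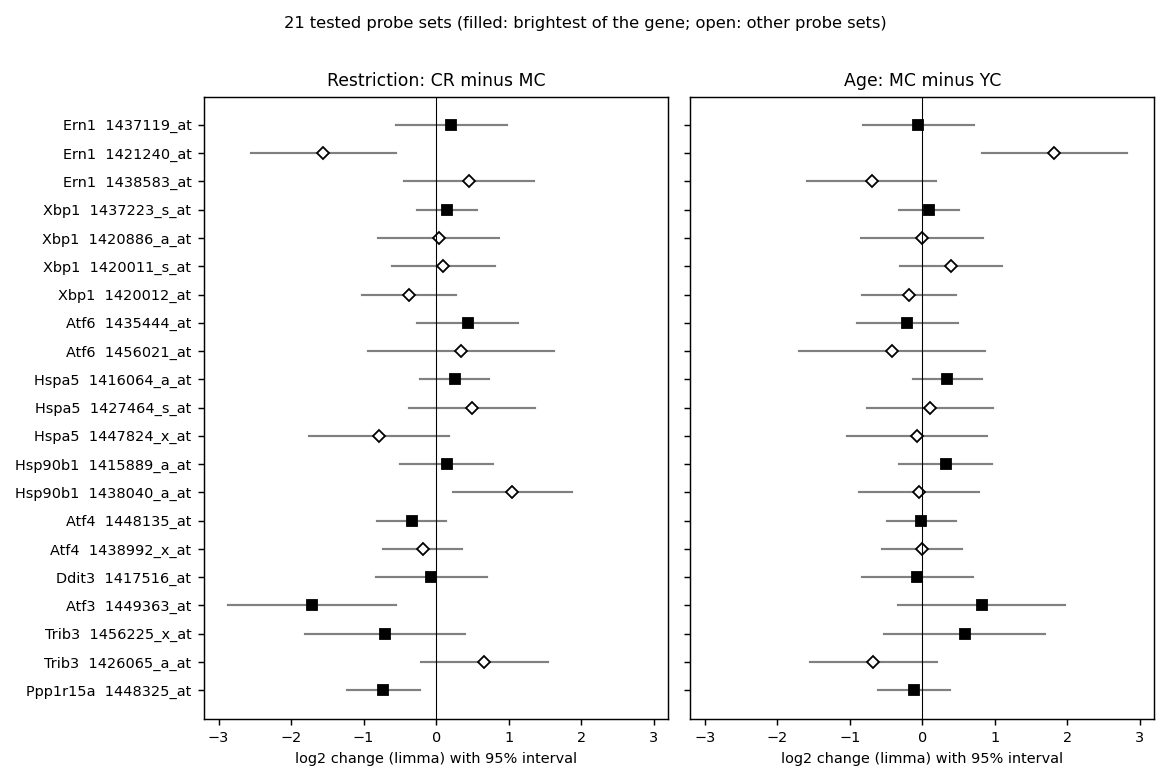
Log2 difference (x axis) with its 95% interval for the 21 tested probe sets, CR minus MC on the left and MC minus YC on the right; filled squares are the brightest probe set of a gene and open diamonds its other probe sets. For CR minus MC the interval excludes 0 for Atf3, Ppp1r15a, 1 Ern1 probe set and 1 Hsp90b1 probe set, and for MC minus YC for the same Ern1 probe set alone, before any adjustment for the number of tests.

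The probe sets of the sensor gene Ern1 lay furthest apart among the members for CR minus MC and for MC minus YC, though not for CR minus YC. Its brightest probe set, 1437119_at, read 11.42, 11.54 and 11.59 in the CR arrays, 12.19, 10.79 and 10.95 in the MC arrays and 11.41, 11.27 and 11.41 in the YC arrays. CR and YC arrays lay close together and MC arrays on both sides of them. The difference was 0.21 ± 0.35 (SE, n = 3 per group) for CR minus MC and -0.05 ± 0.35 for MC minus YC (limma, adjusted p = 0.755 and 1).

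A dimmer Ern1 probe set, 1421240_at, gave another picture. It read 9.27, 9.65 and 9.83 in CR, 12.10, 10.54 and 10.78 in MC and 8.98, 9.49 and 9.497 in YC, so that MC overlapped neither of the other groups. The deposited signals, before any normalization here, were 403.9, 648.5 and 758.3 in CR, 4077.8, 1510.9 and 1861.3 in MC and 321.5, 1039.8 and 792.3 in YC. On the log2 scale the difference was -1.56 ± 0.45 for CR minus MC (adjusted p = 0.174) and 1.82 ± 0.45 for MC minus YC (adjusted p = 1). In the fit with array class these were -1.04 ± 0.80 and 1.65 ± 0.50. The age difference of that fit is by construction the one among high-median arrays alone, MC 1 to 3 against YC 2 and 3. Another Ern1 probe set, 1438583_at, averaged 9.61 ± 0.14 in CR, 9.15 ± 0.43 in MC and 9.85 ± 0.23 in YC (SD, n = 3), which puts MC lowest. Within each array, the difference 1421240_at minus 1437119_at was -2.15, -1.88 and -1.76 in CR, -0.08, -0.25 and -0.18 in MC and -2.43, -1.78 and -1.91 in YC. The gap between the probe sets was thus narrow on the MC arrays and wide on all others. The other 2 Ern1 probe sets were below the filter.

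**Figure D2:**
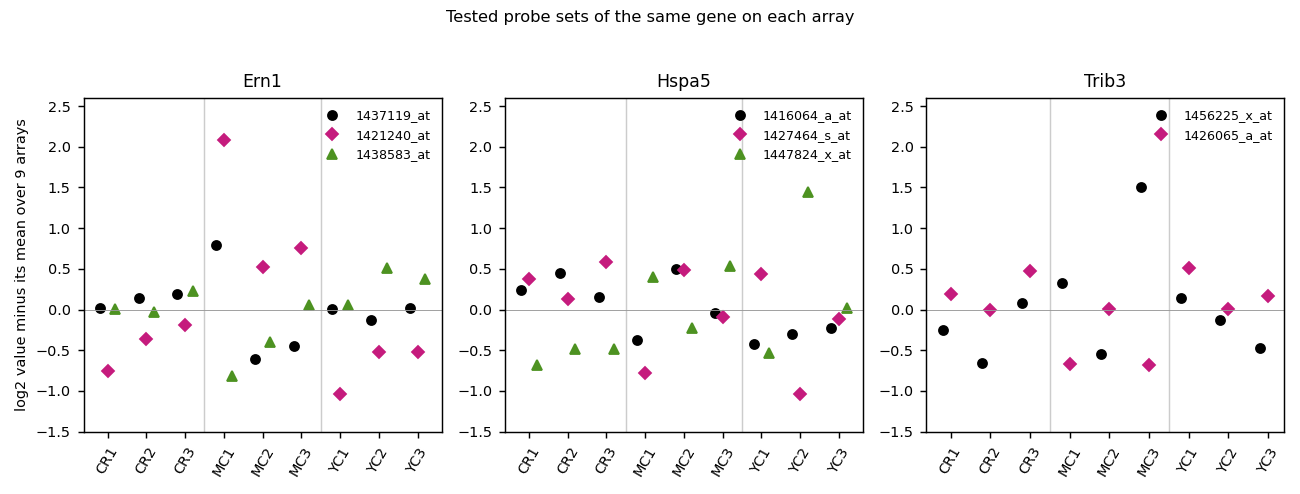
Log2 value of each tested probe set minus its own mean over the 9 arrays (y axis) on each array (x axis), for Ern1, Hspa5 and Trib3, with marker shape and colour for the probe set. In MC, 1421240_at of Ern1 lies above its mean on all 3 arrays and 1438583_at below its mean on MC 1 and MC 2, and the Trib3 probe sets part most on MC 1 and MC 3.

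Xbp1, the transcription factor gene that IRE1α acts on, had 4 tested probe sets, and none of them separated CR from MC or MC from YC. The brightest, 1437223_s_at, averaged 14.61 ± 0.18 in CR, 14.47 ± 0.24 in MC and 14.37 ± 0.19 in YC (SD, n = 3). Its difference was 0.15 for CR minus MC with a 95% interval of -0.26 to 0.56, and 0.09 for MC minus YC with an interval of -0.32 to 0.50. With arrays centred on their median these differences were 1.12 and -0.19, and for CR minus MC the fit with array class gave -0.16 ± 0.32. The other Xbp1 probe sets differed by -0.37 to 0.10 for CR minus MC, with 0 past the threshold, and 1420012_at lay wholly lower in CR than in YC (-0.56).

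Atf6, the gene of the sensor that is itself a precursor of a transcription factor, read 11.72, 11.37 and 11.07 in CR, 11.06, 11.35 and 10.45 in MC and 11.40, 10.86 and 11.22 in YC by its brightest probe set. The groups overlapped in every pair. It differed by 0.43 (95% interval -0.26 to 1.13) for CR minus MC and -0.21 (-0.90 to 0.49) for MC minus YC. The fit with array class gave 0.08 ± 0.56 for CR minus MC, the array median as a covariate gave -0.0088 ± 0.37, and centring on array medians gave 1.02 ± 0.45. The dimmer tested probe set, 1456021_at, gave 0.34 and -0.42, and turned to -0.18 for CR minus MC in the table as deposited.

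**Figure D3:**
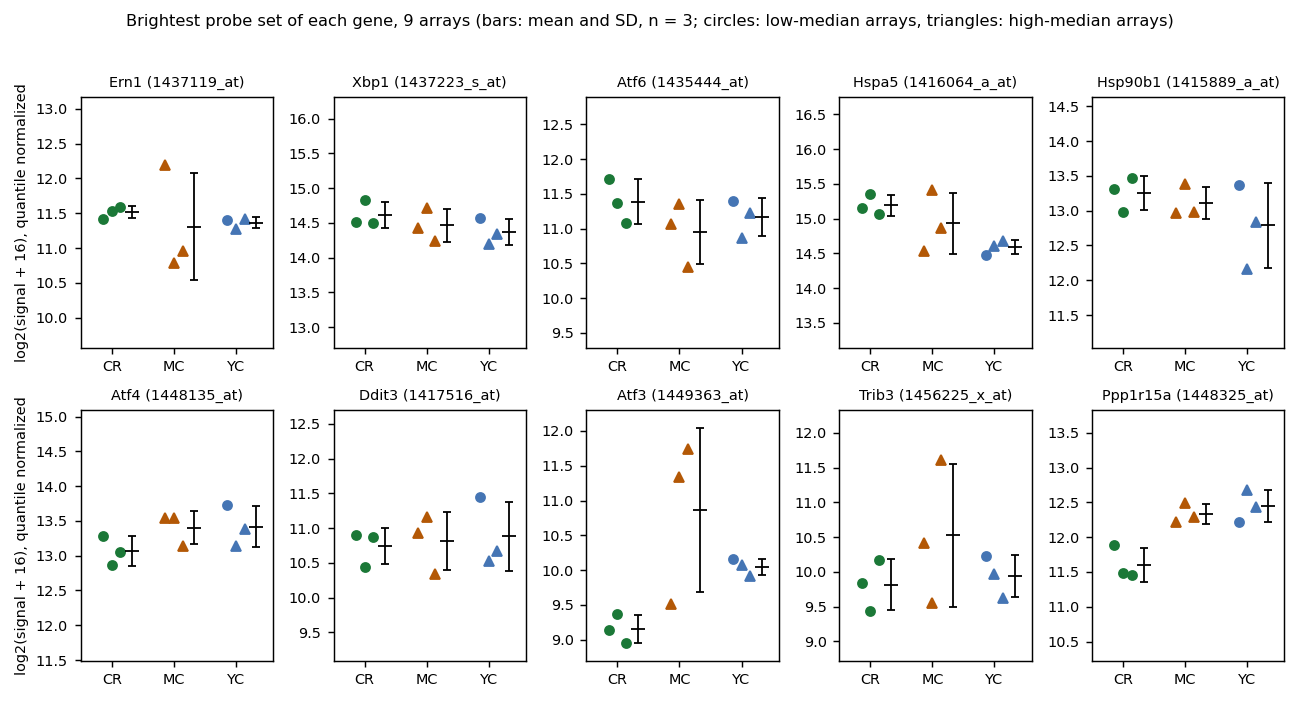
Log2 values (y axis, quantile normalized, same span in each panel) of the brightest probe set of each of the 10 genes on the CR, MC and YC arrays (x axis); circles are low-median and triangles high-median arrays, and the bars are mean and SD over 3 arrays. CR lies wholly below MC and YC for Atf3 and Ppp1r15a, and CR lies wholly above YC for Hspa5 and, by a narrow gap, for Ern1.

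The ER chaperone gene Hspa5 read 15.15, 15.36 and 15.06 in CR, 14.54, 15.40 and 14.87 in MC and 14.48, 14.61 and 14.68 in YC by its brightest probe set, 1416064_a_at. CR arrays all lay above the YC arrays and overlapped the MC arrays, of which MC 2 was the highest of all 9. It differed by 0.25 ± 0.21 for CR minus MC (adjusted p = 0.521), 0.35 ± 0.21 for MC minus YC (adjusted p = 1) and 0.60 ± 0.21 for CR minus YC (adjusted p = 0.457). Another probe set, 1427464_s_at, gave 0.50 ± 0.39 for CR minus MC, and -0.51 ± 0.63 in the fit with array class. The dimmest, 1447824_x_at, gave -0.79 ± 0.44, with 11.04, 11.25 and 11.24 in CR, 12.13, 11.49 and 12.26 in MC and 11.20, 13.17 and 11.75 in YC. The low-median array YC 1 stood with the CR arrays on that probe set, and the fit with array class gave 0.48 ± 0.65. The mean of all Hspa5 probe sets differed by -0.01 for CR minus MC.

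Hsp90b1, the gene of the ER form of HSP90, had 2 tested probe sets of the same sign for CR minus MC and of unequal size. The brighter, 1415889_a_at, averaged 13.26 ± 0.25 in CR, 13.11 ± 0.23 in MC and 12.79 ± 0.61 in YC (SD, n = 3). It differed by 0.14 ± 0.29 (SE) for CR minus MC and by 0.32 ± 0.29 for MC minus YC. The fit with array class gave -0.73 ± 0.43 and 0.61 ± 0.27, and centring on array medians turned the age difference to -0.05. The dimmer, 1438040_a_at, read 11.28, 11.38 and 11.99 in CR, 9.99, 11.18 and 10.33 in MC and 10.33, 10.34 and 10.96 in YC. On it the CR arrays lay above all MC and YC arrays. Its difference for CR minus MC was 1.05 ± 0.37 (2.07-fold, adjusted p = 0.206), and 1.37 ± 0.67 in the fit with array class.

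The promoters of 4 members are printed because each holds a motif that was searched for: the chaperones Hspa5 and Hsp90b1, and Atf3 and Ppp1r15a, described next. The sequences are the 250 bases before the gene start, 5′ to 3′, from RefSeq on GRCm38.p6, which had a window for 9 of the 10 genes. Capitals mark motif matches.
Hspa5, chr2:34771840-34772089, plus strand: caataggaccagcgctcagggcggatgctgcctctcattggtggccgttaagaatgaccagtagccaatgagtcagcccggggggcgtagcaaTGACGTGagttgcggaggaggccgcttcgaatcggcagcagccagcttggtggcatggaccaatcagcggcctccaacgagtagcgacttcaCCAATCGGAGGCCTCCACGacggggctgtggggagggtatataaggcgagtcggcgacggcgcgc
Hsp90b1, chr10:86705445-86705694, minus strand: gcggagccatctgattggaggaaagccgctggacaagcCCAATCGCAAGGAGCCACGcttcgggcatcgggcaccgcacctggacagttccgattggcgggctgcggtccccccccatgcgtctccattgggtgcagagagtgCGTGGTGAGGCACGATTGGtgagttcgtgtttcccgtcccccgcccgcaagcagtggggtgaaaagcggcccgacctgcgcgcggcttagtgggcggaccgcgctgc
Atf3, chr1:191183334-191183583, minus strand: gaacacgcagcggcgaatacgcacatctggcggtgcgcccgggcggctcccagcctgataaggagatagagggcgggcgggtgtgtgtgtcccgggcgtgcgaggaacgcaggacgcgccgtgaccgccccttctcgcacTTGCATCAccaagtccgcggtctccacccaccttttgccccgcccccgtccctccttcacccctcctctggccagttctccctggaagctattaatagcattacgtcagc
Ppp1r15a, chr7:45526269-45526518, minus strand: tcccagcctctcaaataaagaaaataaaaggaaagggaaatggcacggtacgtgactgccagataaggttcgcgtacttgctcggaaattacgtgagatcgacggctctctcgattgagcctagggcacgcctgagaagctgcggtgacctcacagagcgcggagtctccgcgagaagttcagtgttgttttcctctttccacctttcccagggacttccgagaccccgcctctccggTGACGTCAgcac

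In the Hspa5 window the capitals are the ER stress element, CCAAT and CCACG with 9 bases between them, at 65 to 47 bases before the start, and the core of the UPR element, TGACGTG, at 157 to 151. The ER stress element is the motif through which ATF6, together with NF-Y, is known to act. Hsp90b1 held 2 ER stress elements, at 212 to 194 on the printed strand and at 107 to 89 on the other. On both strands, an ER stress element was found in 0.113% of 32851 such windows of all genes, and among members in Hspa5 and Hsp90b1 alone. The capitals in Atf3 are a C/EBP-ATF element, TTNCATCA, at 110 to 103, a motif type that ATF4 binds with C/EBP partners, present in 3.45% of windows. Those in Ppp1r15a are a cAMP response element, TGACGTCA, at 12 to 5, present in 1.55% of windows, a motif added to the search after the sequences were seen. TGACGTG was present in 1.65% of windows, and the ER stress element II, ATTGG and CCACG with 1 base between, in 0.0304% and in no member. A match describes letters in a window and is not evidence of binding.

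On the integrated stress response side, the transcription factor gene Atf4 read 13.29, 12.86 and 13.06 in CR, 13.54, 13.54 and 13.14 in MC and 13.72, 13.14 and 13.38 in YC by its brightest probe set. The groups overlapped in every pair. The difference was -0.34 (95% interval -0.82 to 0.14) for CR minus MC and -0.01 (-0.49 to 0.47) for MC minus YC. The second tested probe set gave -0.19 and -0.01. In the fit with array class the brighter one gave -0.80 ± 0.36 for CR minus MC. The CR minus MC sign turned to 0.65 and 0.74 with arrays centred on their median, a scaling in which the median of all tested probe sets was 0.58, and to 0.03 and 0.12 in the table as deposited.

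Ddit3, the gene of the transcription factor CHOP that drives cell death under lasting ER stress, read 10.90, 10.44 and 10.88 in CR, 10.93, 11.15 and 10.35 in MC and 11.44, 10.52 and 10.67 in YC. All pairs of groups overlapped, and the 3 group means lay within 0.14 of each other. It differed by -0.07 ± 0.35 both for CR minus MC (95% interval -0.84 to 0.70) and for MC minus YC (-0.84 to 0.70). The fit with array class gave -0.91 ± 0.54 for CR minus MC, and centring on array medians gave 0.38. Only 1 of the 2 Ddit3 probe sets passed the filter.

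Atf3, a stress-inducible transcription factor gene downstream of ATF4, read 9.13, 9.36 and 8.95 in CR, 9.52, 11.34 and 11.74 in MC and 10.16, 10.07 and 9.92 in YC. Deposited signals were 360.9, 519.8 and 396.1 in CR, 893.7, 2522.7 and 3193.1 in MC and 874, 1437.2 and 1041.8 in YC. The CR arrays lay below all others, and the MC arrays spread widely (SD 1.18), with MC 1 below and MC 2 and MC 3 above the YC arrays. The difference was -1.71 ± 0.52 for CR minus MC (3.28-fold lower in CR, adjusted p = 0.182) and 0.82 ± 0.52 for MC minus YC (adjusted p = 1). CR minus YC was -0.90 ± 0.52 (adjusted p = 0.487). Atf3 had only 1 probe set. In the fit with array class, CR minus MC was -1.87 ± 0.97, and among low-median arrays alone CR against YC 1 was -1.005.

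Ppp1r15a, the GADD34 gene, read 11.89, 11.48 and 11.45 in CR, 12.22, 12.49 and 12.29 in MC and 12.22, 12.68 and 12.43 in YC. CR did not overlap MC or YC, which lay together. The gene had only 1 probe set. The difference was -0.73 ± 0.23 for CR minus MC (1.66-fold lower in CR, adjusted p = 0.184), -0.84 ± 0.23 for CR minus YC (adjusted p = 0.457) and -0.11 ± 0.23 for MC minus YC. In the fit with array class CR minus MC was -0.39 ± 0.38, and with arrays centred on their median, where all probe sets had a median of 0.58, it was 0.06. Both Atf3 and Ppp1r15a are also induced as immediate early genes. Of 11 immediate early genes outside the members 9 were higher in CR than in MC, with a median of 0.13 and 0 past the threshold, but 4 of 11 in the fit with array class (median -0.14). In the main fit 3 of the 11 were higher in CR and 2 lower at an unadjusted p under 0.05 (limma), against 18.5% of all tested probe sets. Among the 11, Fos was at 0.09 and Egr1 at 0.36, while Fosb was at -2.27 (adjusted p = 0.183).

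Trib3, a pseudokinase gene that CHOP and ATF4 induce, had 2 tested probe sets of opposite sign. The brighter, 1456225_x_at, read 9.84, 9.44 and 10.18 in CR, 10.42, 9.55 and 11.61 in MC and 10.23, 9.97 and 9.62 in YC. The other, 1426065_a_at, read 9.82, 9.61 and 10.10 in CR, 8.95, 9.63 and 8.95 in MC and 10.13, 9.63 and 9.79 in YC. MC 1 and MC 3 were high on the first and low on the second. The difference for CR minus MC was -0.71 ± 0.50 on the first and 0.67 ± 0.40 on the second, and for MC minus YC 0.58 ± 0.50 and -0.67 ± 0.40.

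Atf3, Ddit3 and Ppp1r15a each had 1 tested probe set, so agreement between probe sets could not be examined for them. Of the 7 members with several tested probe sets, 3 had the same sign throughout for CR minus MC (Atf4, Atf6 and Hsp90b1), 2 for MC minus YC (Atf4 and Atf6) and 3 for CR minus YC (Atf4, Hsp90b1 and Trib3). Over all 5463 genes with several tested probe sets the shares with 1 sign were 47.43%, 40.03% and 47.12% in that order. The widest spread within a gene was in Ern1, 2.01 log2 units between its probe sets for CR minus MC and 2.52 for MC minus YC, and for CR minus YC in Hspa5, 1.46. Among these 7 genes Atf4 had the narrowest spread for MC minus YC, 0.0066. Its values there were -0.0118 ± 0.22 and -0.0052 ± 0.25 (SE), and those of Trib3 for CR minus YC were -0.12 ± 0.50 and -0.0083 ± 0.40. All of these were smaller than their SE, so the shared sign says little in these cases.

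For CR minus MC, 1 of 21 member probe sets lay wholly higher in CR (Hsp90b1 1438040_a_at) against 19.5% of all, and 4 wholly lower (Atf3, Ppp1r15a, Ern1 1421240_at and Hspa5 1447824_x_at) against 18.2%. For MC minus YC, 1 lay wholly higher in MC (Ern1 1421240_at) against 2.97%, and 0 wholly lower against 2.92%. For CR minus YC, 3 lay wholly higher in CR (Hspa5 1416064_a_at, Ern1 1437119_at and Hsp90b1 1438040_a_at) against 11.4%, and 3 wholly lower (Atf3, Ppp1r15a and Xbp1 1420012_at) against 9.1%. By brightest probe sets alone, the median difference over the 10 genes was 0.04 for CR minus MC and 0.04 for MC minus YC, beside 0.08 and 0.02 over all tested probe sets. This median was, for CR minus MC, -0.56 in the fit with array class, with 3 of 10 genes positive, and 0.77 with arrays centred on their median, with 8 of 10 positive. For MC minus YC it was 0.20 in the fit with array class, -0.24 with arrays centred on their median and -0.03 in the table as deposited. Over all tested probe sets the median in the same settings was -0.03 and 0.58 for CR minus MC, and 0.01, -0.15 and 0.06 for MC minus YC. The sign of the members' median thus differed between settings, as did the sign over all tested probe sets. The 95% interval lay within 1 log2 unit of 0 for 9 of the 21 member probe sets (42.9%) for CR minus MC and 13 of 21 (61.9%) for MC minus YC, beside 22.8% and 30.6% of all tested probe sets. Among the brightest probe sets of the 10 genes it did so for 6 and 8.

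The order of group means differed from gene to gene. By brightest probe sets CR was highest, MC next and YC lowest for Xbp1, Hspa5 and Hsp90b1, and YC highest, MC next and CR lowest for Atf4, Ddit3 and Ppp1r15a. MC was highest and CR lowest for Atf3 and Trib3, and CR highest and MC lowest for Ern1 and Atf6. Neighbours in these orders overlapped in all cases except CR against YC in Atf3, CR against MC in Ppp1r15a and CR against YC in Ern1, where CR 1 at 11.42 lay just above YC 3 at 11.41.

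Other genes of these pathways, each by its brightest probe set, had 0 calls. Of 31 tested ATF4 and CHOP targets 0 passed in either direction in any comparison. For CR minus MC 11 were positive and 20 negative with a median of -0.09, and 11 of 31 were positive in the fit with array class (median -0.19). The balance turned to 26 of 30 positive with arrays centred on their median (median 0.65, beside 0.58 over all tested probe sets). In the table as deposited 16 of 30 were positive (median 0.03, beside -0.04). In the main scaling the smallest p belonged to Atf5, a transcription factor of the ATF4 type (-0.68 ± 0.20, adjusted p = 0.177), and Gpt2, a mitochondrial aminotransferase gene (-1.58 ± 0.52, adjusted p = 0.19). Atf5 read 12.07, 12.05 and 12.24 in CR, against 13.02, 12.66 and 12.72 in MC. In the age comparison, MC minus YC, 20 were positive and 11 negative (median 0.09), and 19 were positive in the fit with array class (median 0.07). Cebpb, a C/EBP factor gene, was at -0.39 ± 0.19 with age and Pck2, the mitochondrial PEP carboxykinase gene, at -0.72 ± 0.38. The eIF2 list held 14 tested genes: those of eIF2, its kinases, its exchange factor and its phosphatase, and also Dnajc3, Nck1 and Impact. Eif2s1, the gene of eIF2α, was not among those tested. Of the 14, 9 were positive for CR minus MC (median 0.15) and 6 for MC minus YC (median -0.09). In the fit with array class 11 were positive for CR minus MC (median 0.16) and 5 for MC minus YC (median -0.16). Dnajc3, an ER co-chaperone that inhibits PERK, was at 0.78 ± 0.25 for CR minus MC (adjusted p = 0.185), and Eif2ak2, the kinase that senses double-stranded RNA, at -1.85 ± 0.65 (adjusted p = 0.205). With age (MC minus YC), Dnajc3 was at -0.42 ± 0.25 and Eif2ak4, the amino acid sensing kinase gene, at -0.85 ± 0.56.

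Of 25 tested ER chaperones and folding enzymes, 19 were positive for CR minus MC with a median of 0.22, beside 0.08 over all tested probe sets, and 0 passed. Dnajb9, a BiP co-chaperone, was at 0.53 ± 0.19 (adjusted p = 0.208) and Txndc5, a disulfide isomerase, at 0.67 ± 0.25 (adjusted p = 0.218). Dnajb9 read 13.04, 13.29 and 13.17 in CR, 12.80, 12.61 and 12.51 in MC and 13.06, 12.72 and 12.79 in YC, so the low-median array YC 1 lay among the CR arrays. In the fit with array class 7 of the 25 were positive and the median was -0.26, while 21 were positive in the table as deposited and 25 with arrays centred on their median. With age 16 were positive (median 0.06), with Txndc5 at -0.47 ± 0.25 and Calr, calreticulin, at 0.27 ± 0.16. In the fit with array class 18 of the 25 were positive with age (median 0.37, beside 0.01 over all tested probe sets). Of 22 tested genes of ER-associated degradation and translocation 15 were positive for CR minus MC (median 0.12), 7 in the fit with array class (median -0.22), and 0 passed. As deposited 18 of the 22 were positive, and all 22 with arrays centred on their median. Derl1, of the retrotranslocation channel, was at 0.58 ± 0.20 and Edem3, a mannosidase-like gene, at 0.65 ± 0.26. With age 13 were positive (median 0.04), and 14 in the fit with array class (median 0.16). Sel1l, a partner of the ER ubiquitin ligase, was at 0.52 ± 0.27 with age and Derl1 at -0.36 ± 0.20. Of 14 other sensors, ATF6-type factors and death factors 9 were positive for CR minus MC (median 0.20), and 7 in the fit with array class (median 0.02). Rtcb, the ligase that joins spliced Xbp1, was at 0.62 ± 0.25 and Mbtps2, which cuts ATF6, at 0.65 ± 0.32. With age 8 were positive (median 0.09), with Casp12, a caspase gene, at -0.78 ± 0.33 and Rtcb at -0.39 ± 0.25. Centring on array medians left 2 to 5 members of each of the 5 lists positive for MC minus YC. In that scaling the median over all tested probe sets was -0.15.

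**Figure D4:**
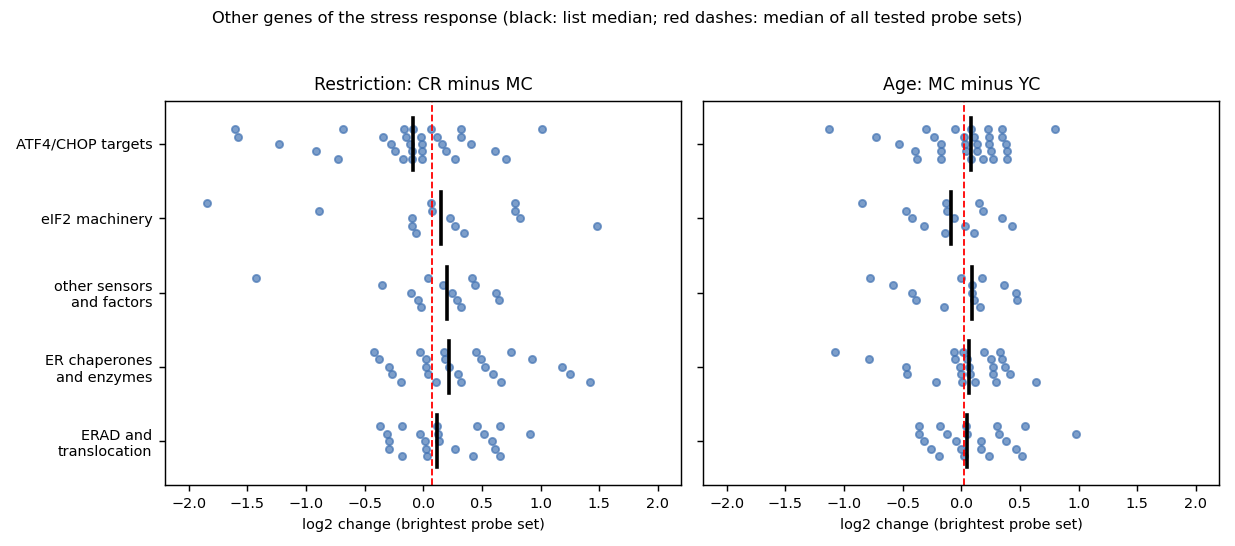
Log2 difference (x axis) of each tested gene of 5 lists, by its brightest probe set, for CR minus MC on the left and MC minus YC on the right; black bars are list medians and the red dashed line is the median of all tested probe sets. List medians lie between -0.09 and 0.22 on the left and between -0.09 and 0.09 on the right.

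For CR minus YC, groups that differ in both age and diet, the same lists held 0 genes past the threshold. The ATF4 and CHOP targets had 13 of 31 positive (median -0.11) and 8 of 31 against YC 1 within the low-median arrays (median -0.12). With arrays centred on their median 23 of 30 were positive (median 0.47, beside 0.39 over all tested probe sets). In the main scaling Gpt2 was at -1.63 ± 0.52 and Ddit4, an mTOR inhibitor gene, at 1.09 ± 0.42. The ER chaperone list had 20 of 25 positive (median 0.28) and 10 of 25 against YC 1 within the low-median arrays (median -0.06). In the table as deposited 23 of 25 were positive (median 0.38), and 25 with arrays centred on their median (median 0.79). In the main scaling Cnpy2 was at 0.45 ± 0.27 and Uggt1, a glucosyltransferase of glycoprotein folding, at 0.73 ± 0.43. The degradation list had 17 of 22 positive (median 0.25) and 6 of 22 against YC 1 within the low-median arrays (median -0.11). As deposited 18 of 22 were positive (median 0.36), and 22 with arrays centred on their median (median 0.77). In the main scaling Sec63 was at 0.85 ± 0.36 and Sel1l at 0.63 ± 0.27. In the eIF2 list Eif2ak2 was at -1.499 ± 0.65 and Nck1 at 0.81 ± 0.37, and among other sensors Mbtps2 was at 0.76 ± 0.32 and Creb3l2 at 0.62 ± 0.37.

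Genes whose values over the 9 arrays lay nearest to a member were found by the root mean square difference of log2 values, each gene centred on its own mean, among 13702 genes. For Ern1 (1437119_at) they were Nrg4, Cys1 and Taf12, at 0.14 to 0.16 log2 units, where Ern1 itself varied by 0.38 around its mean. For Hspa5 they were Eid2, Mapk9 and Farp1 (0.14 to 0.16, own variation 0.33). For Ddit3 they were Rcn1, Eef1a1 and Nxn (0.09 to 0.11, own variation 0.33), and for Atf4 they were Mmp8, Serpinb5 and Lsp1 (0.11 to 0.12, own variation 0.26). None of these 12 genes was on a list used here.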

How the data were processed

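The deposited table held linear signal intensity per probe set on 9 one-colour arrays. Labelled cRNA was made by in vitro transcription, per the labels' protocols, and GCOS 1.3 is named per the submitters' processing notes. Which signal algorithm and scaling target were used is not stated in the sources. Array means after trimming lay between 1494 and 1496, so the authors' intensity values had been scaled per array, while medians ran from 526.8 to 1103.9. A platform annotation gave 1 symbol for 34945 probe sets, several for 932 and none listed for 9160, and 34741 of those with 1 symbol were matched to RefSeq (GRCm38.p6).

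Values were transformed to log2(signal + 16), quantile normalized and filtered at the 40th percentile of each probe set's mean (27022 kept). Group means of all 9 arrays were fitted in limma 3.58.1 (R 4.3.3, lmFit, eBayes with a variance trend), and the fit was tested on simulated data. That simulation drew independent noise for each probe set and held no array class or tissue difference, so it could not test their part. A gene's main probe set was its brightest. For 4 members the 3 nearest genes by root mean square difference were named. All members were named. Of each pathway list the 2 genes with the smallest p per comparison were named, since none passed. Fos, Egr1 and Fosb were named after their values were seen. Members, lists and tests were chosen with earlier results of these data known. Same-numbered arrays of different groups had correlations of deviations from -0.29 to 0.27, so the numbers were not taken to pair samples. Precision is limited by having 3 arrays a group. The median SE was 0.43 over all tested probe sets and 0.35 over member probe sets.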

Additional observations from a re-analysis of the deposited data

How the results depend on the processing

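Alternatives were a pseudocount of 1 or 64, no filter or one at the 60th percentile, other array scaling, a fit without the variance trend, one with array weights, one of the compared groups alone, the replicate number as a block, array class or median as a term, within-class fits and each array left out. No member passed in any of them for MC minus YC or CR minus YC. For CR minus MC 4 member probe sets passed with array weights (Atf3, adjusted p = 0.0414, Ppp1r15a, 0.0297, Ern1 1421240_at, 0.0197, and Hsp90b1 1438040_a_at, 0.0458), a fit that called 3397 probe sets, 12.6%, and whose weights stopped before convergence. Over all alternatives with a value their lowest and highest adjusted p ran from 0.0197 to 0.9996. The count over all probe sets for CR minus MC, 25 as reported, was 7 in the table as deposited, 1846 with only the groups compared, and 0 with arrays centred on their median, without a variance trend, with the replicate block, in the fit with array class or with the array median as a covariate. Leaving out 1 array gave 0 to 1147, the highest without YC 2, with 209 without YC 1, 49 without MC 2, 33 without YC 3, 2 without CR 1 and 0 without CR 2, CR 3, MC 1 or MC 3. For CR minus YC it was 3 within 1 array class and 0 to 328 on leaving out 1 array, the highest without YC 1. The F test called 1 without a filter, 1 in the table as deposited, 1027 with array weights and 0 to 50 on leaving out 1 array. The replicate block changed no other call. The cause of these shifts was not tested, and CR minus MC has no within-class value because CR and MC share no class. The sign was the same in all alternatives for 5 of 21 member probe sets for CR minus MC (Atf3, Ern1 1421240_at, Hsp90b1 1438040_a_at and both of Trib3), 5 for MC minus YC and 8 for CR minus YC.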
